A study of Mus musculus with 2 samples.

Results

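First introns of protein-coding genes in embryonic mouse limb held 18494 of the 208965 DNase peaks of replicate 1 and 17041 of the 196870 of replicate 2. DNase-seq cuts nuclear DNA with the enzyme DNase I, which reaches DNA that is free of tightly packed nucleosomes, so a peak marks a stretch of open chromatin. A peak was counted here when its centre lay in intron 1 of the longest transcript of a coding gene, in no exon, and over 1 kb from every transcription start site (TSS) of a coding gene. The comparison was with intron 2 and all later introns of the same transcripts, under the same limits, where replicate 1 had 40387 peaks and replicate 2 had 38015.

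The tissue was whole limb from mouse embryos of strain B6NCrl at embryonic day 14.5, with no altered allele or treatment named in the labels and with male and female embryos pooled. There was 1 group of 2 biological replicates, without a treated or mutant group, and both carry the same donor identifier in the labels. The difference between them may therefore be technical. Limb at this stage mixes mesenchyme, cartilage, muscle, skin, vessels and blood. In such a mixture, a site open in few cells and a site weakly open in many cannot be told apart. A peak shared by both replicates lay within 1 kb of a TSS of 7 of 7 limb mesenchyme genes (among them Prrx1 and Tbx5), 3 of 4 cartilage genes, 2 of 3 muscle genes, 2 of 3 epidermal genes, 2 of 3 endothelial genes and 1 of 2 blood genes. It did so for 3 of 7 genes of other tissues, namely Hnf4a, Gad1 and Rbfox3, and for 14717 of all 21938 coding genes. An open start alone therefore did not separate limb from other tissues. The number of sequenced reads behind each list is unknown.

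The first intron is usually the longest intron of a mammalian gene and begins a short way downstream of the promoter. Enhancers, DNA elements that bind transcription factors and raise transcription from a promoter, are often found there. Well-known examples in mice lie in the first introns of Col2a1, the main collagen gene of cartilage, and of Tek, which encodes the angiopoietin receptor of endothelial cells.

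The peaks differed widely in base composition and in position, as 11 of them show. The first 3 below had the highest signal of all first-intron peaks shared by both replicates, and the other 8 were chosen from the named genes as examples of promoter-near and distant positions and of the sequence motifs described later. Each is 150 bp of the mm10 reference, plus strand, and lies wholly within the first intron of the gene named. Capitals mark a match to GGGCGG (the letters bound by SP and KLF factors) in 4931414P19Rik, Creb3l1 and Mnt, to TGACTCA (AP-1) in Sparc, to AGNGGGCGC (the core bound by CTCF) in Tgfbr3, to CAGCTG (an E-box, bound by basic helix-loop-helix factors) in Runx3, Tek, Trp63 and Rora, and to TTGGC (bound by NFI factors) in Ror2. Either strand was allowed, so GGGCGG can appear as its reverse complement, and the Aida peak held none of the 31 motifs searched.
4931414P19Rik: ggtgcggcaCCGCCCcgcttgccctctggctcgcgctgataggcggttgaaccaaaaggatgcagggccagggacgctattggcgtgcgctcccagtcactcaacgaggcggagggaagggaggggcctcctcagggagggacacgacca
Aida: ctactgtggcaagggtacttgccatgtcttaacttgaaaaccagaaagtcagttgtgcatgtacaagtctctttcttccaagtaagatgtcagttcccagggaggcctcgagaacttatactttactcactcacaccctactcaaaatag
Creb3l1: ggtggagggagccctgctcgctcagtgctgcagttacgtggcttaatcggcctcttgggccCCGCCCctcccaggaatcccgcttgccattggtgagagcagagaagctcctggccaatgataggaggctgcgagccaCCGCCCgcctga
Mnt: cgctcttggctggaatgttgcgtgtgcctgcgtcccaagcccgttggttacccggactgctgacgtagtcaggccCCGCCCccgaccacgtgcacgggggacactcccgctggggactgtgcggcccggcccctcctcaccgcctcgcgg
Sparc: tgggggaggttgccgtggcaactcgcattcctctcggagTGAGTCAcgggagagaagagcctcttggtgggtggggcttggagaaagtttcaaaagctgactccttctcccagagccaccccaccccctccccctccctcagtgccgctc
Tgfbr3: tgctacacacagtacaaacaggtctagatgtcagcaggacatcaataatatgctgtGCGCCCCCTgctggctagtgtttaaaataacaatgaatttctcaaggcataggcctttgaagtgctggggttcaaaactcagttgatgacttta
Runx3: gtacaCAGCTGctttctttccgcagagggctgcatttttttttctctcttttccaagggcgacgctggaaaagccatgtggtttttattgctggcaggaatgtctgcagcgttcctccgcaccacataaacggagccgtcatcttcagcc
Tek: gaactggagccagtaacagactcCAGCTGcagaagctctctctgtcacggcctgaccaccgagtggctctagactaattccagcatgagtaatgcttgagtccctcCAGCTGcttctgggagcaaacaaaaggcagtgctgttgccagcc
Trp63: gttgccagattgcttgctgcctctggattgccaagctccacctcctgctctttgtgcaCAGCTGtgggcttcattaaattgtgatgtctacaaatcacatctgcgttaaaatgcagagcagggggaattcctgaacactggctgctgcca
Rora: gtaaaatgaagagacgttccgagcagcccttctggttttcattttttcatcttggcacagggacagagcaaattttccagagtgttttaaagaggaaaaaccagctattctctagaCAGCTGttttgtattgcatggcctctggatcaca
Ror2: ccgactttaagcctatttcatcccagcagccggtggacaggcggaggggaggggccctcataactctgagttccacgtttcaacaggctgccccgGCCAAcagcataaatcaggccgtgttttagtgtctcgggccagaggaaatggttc

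By that mean percentile, the strongest peak lay at chr14:54603416-54603565 in 4931414P19Rik, 2.50 kb from the start of its transcript. The authors' signal there was 139 in the list of replicate 1 and 124 in that of replicate 2. The Aida peak at chr1:183299236-183299385 reached 141 in replicate 1, against 120 in replicate 2. It contrasts with the first in composition, with 43.3% G or C against 67.3%. The third, at chr2:92008396-92008545 in Creb3l1, which encodes a transcription factor of the secretory pathway in bone-forming cells, had signals of 136 and 122 and lay 16.0 kb from the start. These 3 values were at or above the 99.4th percentile of each list. The other 7 of the 10 strongest were in Gm20388, Gtf2a1, Chd3, Trp53, Dlg4, Mnt and Zfp13, with signals of 129 to 138 in replicate 1 and 107 to 121 in replicate 2. Trp53 encodes the tumour suppressor p53, Chd3 a chromatin remodeller, Gtf2a1 a general transcription factor, and Mnt a repressor that pairs with MAX. Of the 10, 5 lay between 1 and 2 kb from a coding TSS, those of Aida, Gtf2a1, Chd3, Trp53 and Mnt.

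First introns carried more peaks per length than later introns in both replicates. Usable sequence came to 199.1 Mb in first introns and 563.9 Mb in later introns. The density was 92.9 peaks per Mb in first introns of replicate 1 and 85.6 in those of replicate 2, against 71.6 and 67.4 in later introns. The lower of the first-intron values was above the higher of the later-intron values. The ratio of first to later introns was 1.30 in replicate 1 and 1.27 in replicate 2, with a mean of 1.28 ± 0.019 (SD, n = 2). An exact two-sided sign-flip permutation over 2 replicates cannot give a p below 0.5, so no significance can be claimed for this or any other value here, and peaks and genes were not used as replicates. Counting only peaks shared by both replicates gave 53.0 per Mb in first introns and 43.4 in later introns.

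The excess was found on every chromosome with enough sequence to compare. The ratio was above 1 on 20 of 20 chromosomes, all autosomes and X, in each replicate. It ran from 1.11 on chromosome 7 to 1.63 on chromosome 10 in replicate 1, and from 1.06 on chromosome 13 to 1.497 on chromosome 10 in replicate 2. The Y chromosome held 2 first-intron and 2 later-intron peaks in replicate 1 and was not compared. In the 11803 genes that have usable sequence in both kinds of intron, the ratio was 1.30 in replicate 1 and 1.26 in replicate 2. The difference was thus as large within the same genes as over all of them. Hotspots, the wider regions in which the authors' method finds enriched cutting, covered 2.34% of first-intron bases and 1.78% of later-intron bases in replicate 1. In replicate 2 they covered 1.95% of first-intron and 1.53% of later-intron bases.

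Most of the excess lay close to the gene start. Between 1 and 2 kb from the nearest coding TSS, first introns held 214 peaks per Mb in replicate 1 and 169 in replicate 2, against 91.3 and 81.5 in later introns at the same distance, a ratio of 2.34 and 2.08. Between 2 and 5 kb the ratio was 1.31 in replicate 1 and 1.29 in replicate 2. From 5 to 50 kb it was between 1.09 and 1.16 in every distance class and replicate. From 50 to 100 kb the densities were 72.0 and 72.4 per Mb in first introns, against 72.2 and 69.4 in later introns, and beyond 100 kb 51.4 and 50.6 against 51.2 and 48.9. The ratio there lay between 0.997 and 1.04, so first and later introns were nearly equal. Of the peaks that first introns held beyond the number given by later-intron densities at the same distances, 3741 in replicate 1 and 3220 in replicate 2, those at 1 to 2 kb made up 53.6% and 44.6%, and those at 2 to 5 kb 20.8% and 20.9%.

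**Figure D1:**
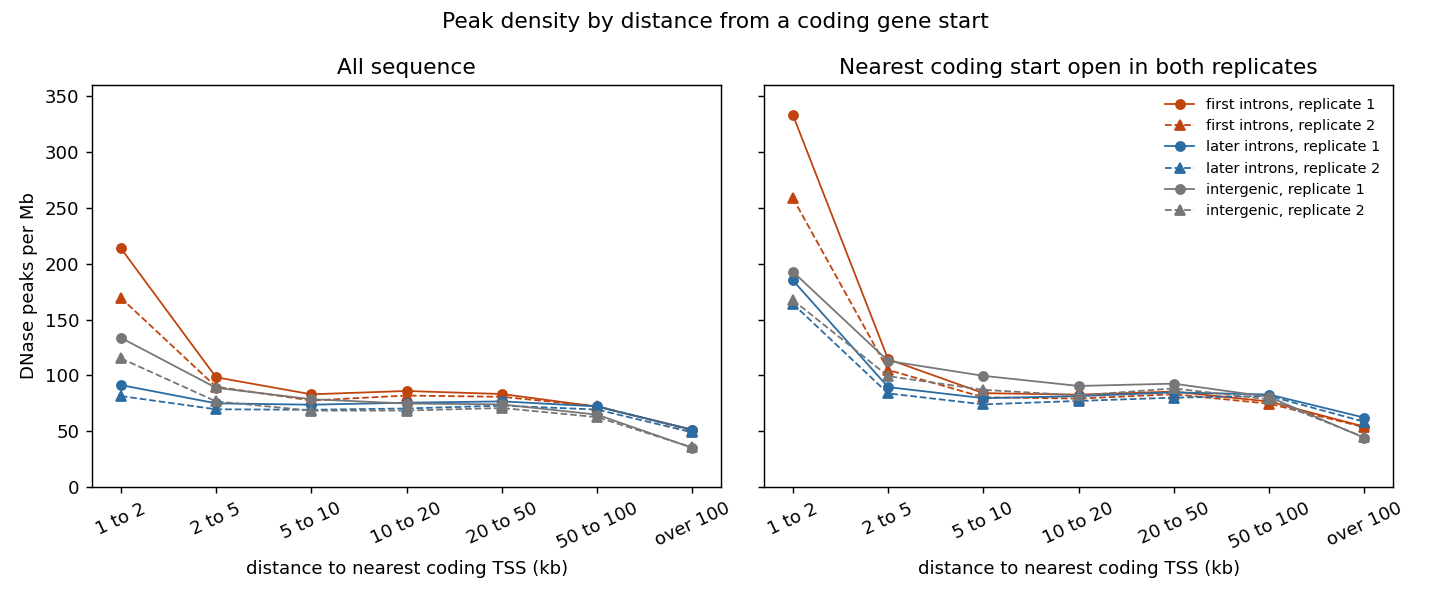
DNase peaks per Mb of usable sequence (vertical axis) against distance to the nearest coding TSS in kb (horizontal axis), for first introns, later introns and intergenic sequence, with circles for replicate 1 and triangles for replicate 2; the right panel keeps only sequence whose nearest coding TSS is open in both replicates. First introns stand highest at 1 to 2 kb, with 214 and 169 peaks per Mb over all sequence and 333 and 259 beside open starts, and hold 0.997 to 1.04 times the later-intron density from 50 kb on over all sequence.

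Within 5 kb of a gene start, the difference from later introns was larger beside starts that were themselves open. Against intergenic sequence this held at 1 to 2 kb only. At 2 to 5 kb the ratio to intergenic sequence was 1.01 and 1.06 beside open starts, and 1.19 and 1.29 beside starts that were not open. A start was taken as open when a shared peak lay within 1 kb of it. Beside open starts, first introns held 333 peaks per Mb at 1 to 2 kb in replicate 1 and 259 in replicate 2, against 185 and 164 in later introns and 193 and 168 in intergenic sequence. Here, too, both first-intron values were above all values of the other classes. Beside starts that were not open, the density at 1 to 2 kb was 79.1 and 68.6 per Mb in first introns, against 69.4 and 62.2 in later introns and 65.1 and 54.6 in intergenic sequence. From 5 to 100 kb beside open starts, first introns held 0.844 to 0.966 times the density of intergenic sequence, and 0.915 to 1.09 times that of later introns. Beyond 100 kb beside open starts, they held 1.23 and 1.20 times the intergenic density and 0.870 and 0.917 times that of later introns. From 5 kb on, the order of the 2 kinds of start turned round for the ratio to later introns. At 10 to 20 kb first introns held 1.02 and 1.03 times the later-intron density beside open starts, and 1.26 and 1.29 times beside starts that were not open. First introns lie beside open starts more often, with 122.6 of 199.1 Mb against 189.0 of 563.9 Mb of later introns.

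Adjusting for distance and then for openness shrank the ratio. Matching intron length alone did not, and left it at 1.30 in replicate 1 and 1.26 in replicate 2. Set against later-intron densities in the same distance classes, the ratio was 1.25 in replicate 1 and 1.23 in replicate 2. With both distance and openness of the nearest start matched it was 1.15 and 1.13. With intron length matched as well, little of it was left. In sequence matched for all of these, first introns thus held 1.07 times the peaks of later introns in replicate 1 and 1.04 times in replicate 2. The values matched for openness, and for openness and length, were added after the first results had been seen.

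Density was highest in intron 1 and next highest in intron 2. It was 92.9 per Mb in intron 1, 77.2 in intron 2, 72.4 in intron 3, 72.5 in intron 4, 67.9 in intron 5 and 69.2 in intron 6 and later, in replicate 1. In replicate 2 the same order ran 85.6, 72.9, 67.4, 67.8, 64.3 and 65.3. The step after intron 1 was the largest, and introns 3 and 4 differed by less than the replicates did. Intron 1 held 92.2 and 85.3 peaks per Mb where it lies before the start codon and 94.3 and 87.0 where it lies after it, a smaller difference than that between replicates.

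Along long introns, first introns were densest at the promoter end. Introns of 20 kb or more were divided into 10 equal parts, part 1 being nearest the gene start. Part 1 of first introns held 153 peaks per Mb in replicate 1 and 131 in replicate 2, against 73.1 and 68.3 in part 1 of later introns. The other 9 parts of first introns held 67.6 to 88.7 per Mb in either replicate, and those of later introns 63.7 to 75.4. Parts 7 to 10 of first introns held at least 83.2 per Mb, above every part of later introns. Short introns showed the widest gap, with 163 and 139 peaks per Mb in first introns under 2 kb against 65.6 and 58.3 in later introns of that length. Such short introns make up 0.759% of the usable first-intron sequence.

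**Figure D2:**
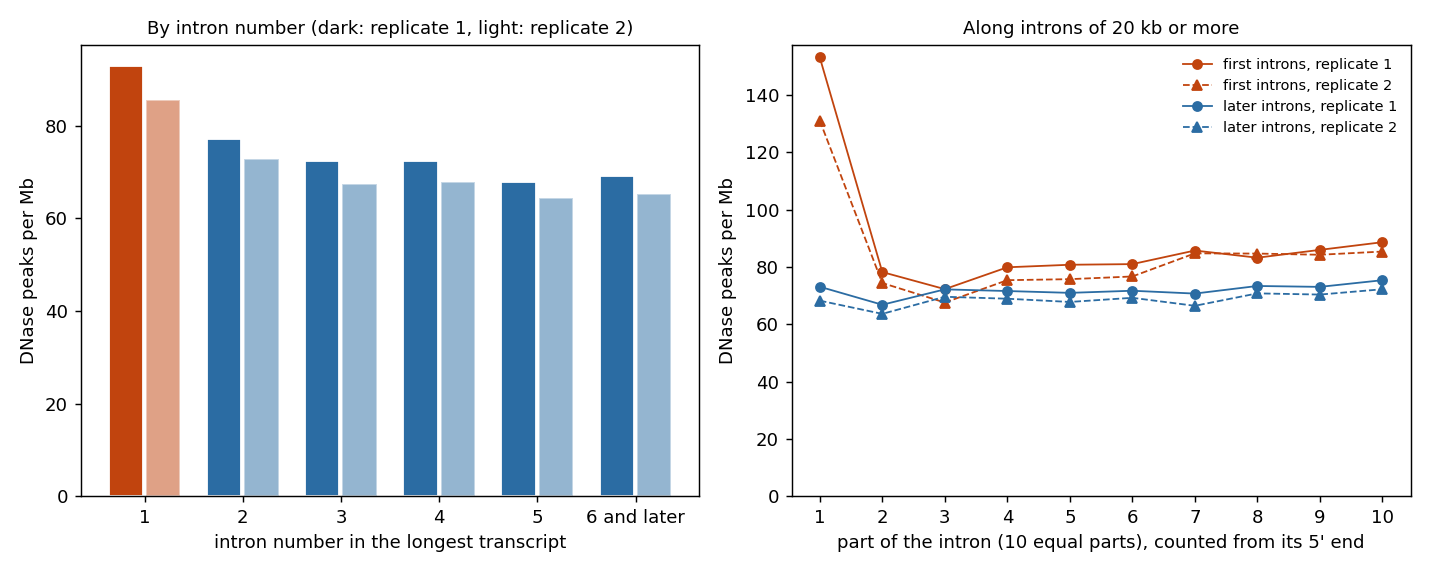
DNase peaks per Mb by intron number in the longest transcript (left, bars from 0, dark for replicate 1 and light for replicate 2) and by part of the intron, 10 equal parts counted from its 5′ end, in introns of 20 kb or more (right, lines). Intron 1 stands at 92.9 and 85.6 per Mb against 77.2 and 72.9 in intron 2, and only part 1 of first introns, next to the gene start, reaches 153 and 131 per Mb.

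The limit of 1 kb removed 10193 of 28687 peaks in first introns outside exons in replicate 1 and 9391 of 26432 in replicate 2. Just outside the removed zone, at 1001 to 1100 bp from a TSS, 559 peaks in replicate 1 had a median signal of 41, and 449 in replicate 2 a median of 31. Just inside it, at 901 to 1000 bp, 701 peaks had a median of 41 and 551 a median of 30. The signal did not step at the limit, while the number of peaks declined across it.

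In signal, first-intron peaks were nearly the same as later-intron peaks. The median authors' signal was 40 in first introns and 39 in later introns of replicate 1, with quartiles of 31 to 54 and of 30 to 54. In replicate 2 it was 30 in first introns and 29 in later introns, with quartiles of 23 to 41 and of 22 to 41. The difference of 1 unit is the smallest step of a signal that takes whole numbers, and its mean over the replicates was 0 in 3 of 12 alternative settings. With the 50000 strongest peaks of each list it was −1 in replicate 1 and 1 in replicate 2. Peaks within 1 kb of a coding TSS had medians of 60.5 and 43, well above both kinds of intron. The 10542 shared first-intron peaks had a median of 49 in replicate 1 and 36 in replicate 2, and 91.6% were higher in replicate 1. Signals were therefore compared within a list only. By rank, the signal of a shared first-intron peak was similar in both lists (Spearman's rho = 0.80 across 10542 peaks, which are not independent replicates).

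First-intron peaks were shared between the replicates somewhat less often than later-intron peaks. Of first-intron peaks 57.0% in replicate 1 and 61.9% in replicate 2 were at least 50% covered by a peak of the other list, against 60.5% and 64.4% of later-intron peaks. The 95% Wilson intervals, which cover counting error only, were 56.3 to 57.7% in first introns and 60.1 to 61.0% in later introns in replicate 1, and 61.2 to 62.7% and 64.0 to 64.9% in replicate 2. The gap was widest where first introns were densest. At 1 to 2 kb from a TSS 48.1% of first-intron peaks of replicate 1 were shared, against 58.7% of later-intron peaks, and in replicate 2 61.3% against 66.2%. In replicate 2 the first-intron share at 1 to 2 kb was the same as at 20 to 50 kb, 61.3%. With shared peaks alone, the overall ratio was 1.22. Within each of 10 equal classes of signal, first-intron peaks were shared less often than later-intron peaks in both replicates, with 54.2% against 60.5% in class 5 of replicate 1. Hotspots centred in first introns were less often at the ceiling of the authors' −log10 q-value of 100, with 24.0% against 29.3% of later-intron hotspots in replicate 1, and 21.1% against 24.3% in replicate 2.

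**Figure D3:**
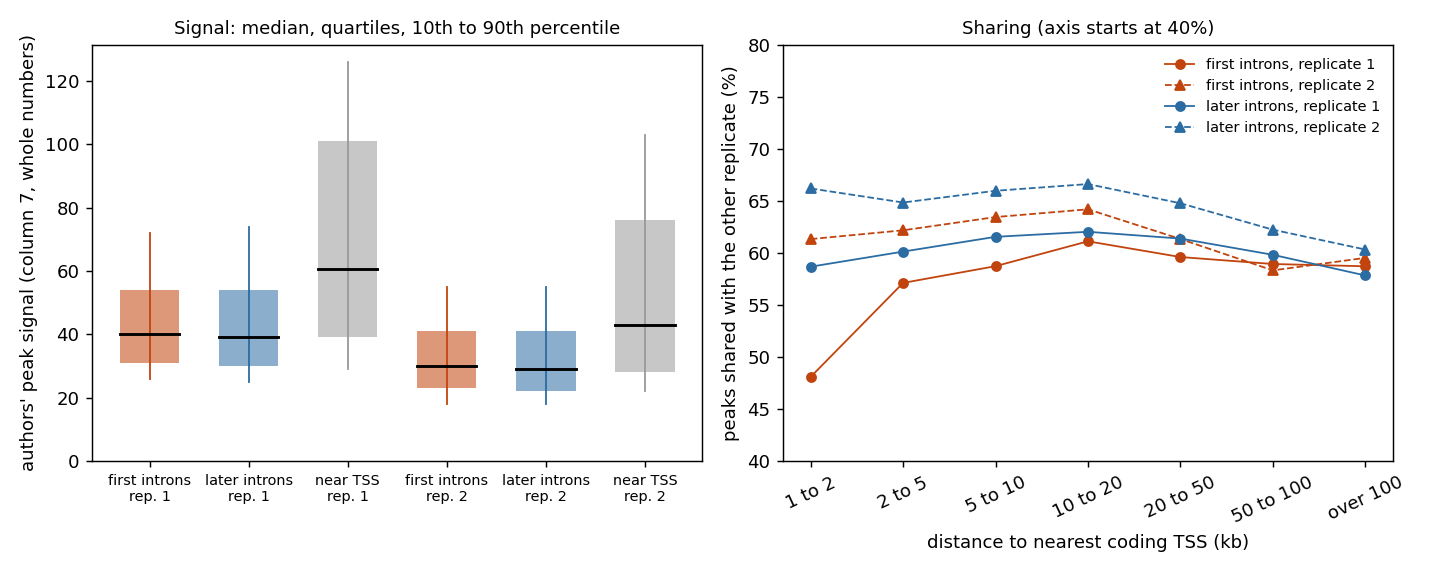
Left, the authors' peak signal in first introns, later introns and within 1 kb of a coding TSS, as median (black line), quartiles (box) and 10th to 90th percentile (line) in each replicate. Right, the percentage of peaks shared with the other replicate by distance to the nearest coding TSS, on an axis that starts at 40%; first introns of replicate 1 are lowest at 1 to 2 kb, with 48.1% against 58.7% in later introns.

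In sequence, CpG-rich peaks were more frequent among first-intron than among later-intron peaks. CpG-rich peaks, those with over 50% G or C and an observed to expected CpG ratio over 0.6, made up 4.03% of first-intron peaks in replicate 1 and 3.85% in replicate 2, against 2.08% and 1.97% of later-intron peaks. In intergenic peaks the shares were 4.07% and 3.73%, about those of first-intron peaks. Such composition is typical of CpG islands, which accompany many vertebrate promoters. It was most frequent at 1 to 2 kb from a TSS, with 9.73% and 11.7% in first introns against 4.44% and 4.11% in later introns and 10.6% and 10.9% in intergenic sequence. At 20 to 50 kb it was 1.92% and 1.65% in first introns, against 2.00% and 1.72% in later introns. CpG-rich first-intron peaks had median signals of 58 and 40, against 39 and 29 for the other first-intron peaks. Of them, 6.71% in replicate 1 and 5.64% in replicate 2 lay within 1 kb of the start of another annotated gene. Among all first-intron peaks the shares were 2.43% and 2.22%. Only starts of genes that do not code for protein could count here, because peaks within 1 kb of a coding TSS were removed. The median G or C content was 48.7% and 49.3% in first introns, against 48.0% in later introns of both replicates. Of first-intron peaks at 1 to 2 kb, 30.0% and 25.1% lay in a hotspot that extended to within 1 kb of a coding TSS, against 18.1% and 15.0% of later-intron peaks at that distance.

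Of 31 short motifs searched on both strands, most were about as frequent in first-intron as in later-intron peaks. The E-box CAGCTG stood in 18.9% and 19.7% of first-intron peaks, against 18.5% and 19.6% of later-intron peaks. Windows of the same length 1 kb away in first introns held it in 6.33% and 6.32%, so it was 2.98 and 3.12 times as frequent in the peaks. Among all peaks over 1 kb from a coding TSS it stood in 17.9% and 18.6%. TTGGC was in 37.1% and 38.4% of first-intron peaks, 37.0% and 38.1% of later-intron peaks, and 21.3% and 21.2% of the nearby first-intron windows.

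Among motifs present in over 1% of peaks, those whose shares differed most between first and later introns in both replicates were GGGCGG, more frequent in first introns, and AGNGGGCGC, less frequent there. GGGCGG stood in 5.82% and 6.58% of first-intron peaks, against 4.16% and 4.51% of later-intron peaks, 1.40 and 1.46 times as often. It stood in 5.08% and 5.40% of all peaks over 1 kb from a coding TSS, and in 1.85% and 1.90% of nearby first-intron windows. Its share was higher in first introns in each of 3 distance classes and both replicates, by 1.17 to 1.42 times. AGNGGGCGC, the core of the site of CTCF, a factor that anchors chromatin loops, stood in 1.38% and 1.10% of first-intron peaks against 1.91% and 1.58% of later-intron peaks. In nearby first-intron windows it stood in 0.0938% and 0.115%. Its share was lower in first than in later introns at all 3 distances, with ratios of 0.517 to 0.733. CAGCTG was less frequent in first introns only at 1 to 2 kb, with 13.0% and 14.4% against 16.4% and 18.3%, and not beyond that, where the ratio was 1.02 to 1.12. Among rarer motifs, CCGGAAGT, of ETS factors at gene starts, stood in 42 first-intron peaks of replicate 1 and 43 of replicate 2, 0.23% and 0.25%, against 0.17% and 0.14% of later-intron peaks. TGATTGAT, of PBX factors, stood in 74 and 59 first-intron peaks, 0.40% and 0.35%, against 0.45% and 0.49%. A match describes the letters in a window and does not show that a factor was bound.

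Genes differed widely in how many peaks their first intron held. Of 13965 genes with usable first-intron sequence, 3911, or 28.0%, had at least 1 shared peak, and 1907 had exactly 1. By length, shared peaks were found in 3.94% of first introns under 2 kb, 24.1% of those of 5 to 10 kb, and 88.3% of those over 100 kb. Later introns of the same lengths held one in 2.77%, 22.6% and 87.5%. A small number of introns held much of the total: 141 first introns with 10 or more shared peaks accounted for 21.1% of all shared first-intron peaks. Genes whose own start was open had 99.3 and 91.8 peaks per Mb in first introns against 76.5 and 72.2 in later introns. Genes without an open start had 51.7 and 45.4 in first introns against 43.8 and 40.4 in later introns.

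The largest number of shared peaks, 310, was in Gm20388, a gene model on chromosome 8 whose first intron of 4384 kb spans 71 other coding genes. Its peaks, 498 in replicate 1 and 460 in replicate 2, were 2.69% and 2.70% of all first-intron peaks on 1.58% of the sequence, and without it the mean density ratio was 1.27. Rora, which encodes an orphan nuclear receptor, followed with 57 peaks in replicate 1, 68 in replicate 2 and 37 shared, in an intron of 542 kb. Ank3, the gene of the membrane scaffold ankyrin-G, had 37, 37 and 27. The others among the 10 highest were Magi1, Sorcs2, Fmnl2, Filip1l, Cadm1, Arhgap26 and Ntm, with 23 to 26 shared peaks in introns of 153 to 551 kb. All 10 introns are longer than 150 kb. With the transcript of the longest genomic span in its place, Ank3 had 5 shared peaks.

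Per length, other genes led. Among 2385 first introns with at least 20 kb of usable sequence, the median was 4.30 shared peaks per 100 kb and 526 had none. Tgfbr3, which encodes the TGF-beta co-receptor betaglycan, was highest with 36.0 per 100 kb, from 8 peaks in replicate 1, 11 in replicate 2 and 8 shared in an intron of 22.9 kb. Its later introns held 14.7 per 100 kb. Chst3, a sulfotransferase gene of cartilage chondroitin sulfate, had 34.9 per 100 kb, also from 8 shared peaks. Ntf3, which encodes the growth factor neurotrophin-3, had 21, 24 and 20 in its 64.0 kb intron, or 32.6 per 100 kb. Kirrel, an adhesion molecule gene, had 17, 12 and 9. These 4 introns all lie before the start codon.

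Of 14 lists of genes grouped by function, first introns of signalling and limb patterning genes were the densest in shared peaks. The 23 signalling genes with usable sequence had 123 shared peaks per Mb in first introns and 109 in later introns, and 17 of the 23 had at least 1, with a median of 3. Of 27 limb patterning genes 11 had one, with a median of 0, and the list had 113 per Mb in first introns and 74.1 in later introns. Over all coding genes 28.0% had a shared first-intron peak, with a median of 0, and the density was 53.0 per Mb. Genes of brain neurons had 10.7 per Mb in first introns, below the 22.7 in their later introns, and 6 of 17 had a peak. Cntnap2 alone supplied 565.8 kb of the 0.938 Mb of first-intron sequence in that list, with 3 of its 10 shared peaks. Genes of liver had 0 of 10, in only 0.0343 Mb of usable first-intron sequence, against 42.3 per Mb in their later introns. Endothelial genes had 63.2 per Mb in first and 63.7 in later introns, and in each of the remaining lists first introns were denser. Open starts differed too, with 23 of 23 signalling genes and 1 of 10 liver genes, against 9979 of 13965 over all coding genes. Cartilage and brain neuron genes lay between, with 14 of 17 and 12 of 17. The lists also differ in intron length, with a median first intron of 26.3 kb for signalling, 3.37 kb for limb patterning, 20.1 kb for brain neuron and 2.76 kb for liver genes, against 5.20 kb over all genes. In the other lists, the share of genes with a shared first-intron peak ran from 2 of 12 for blood to 6 of 9 for pericyte and smooth muscle.

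**Figure D4:**
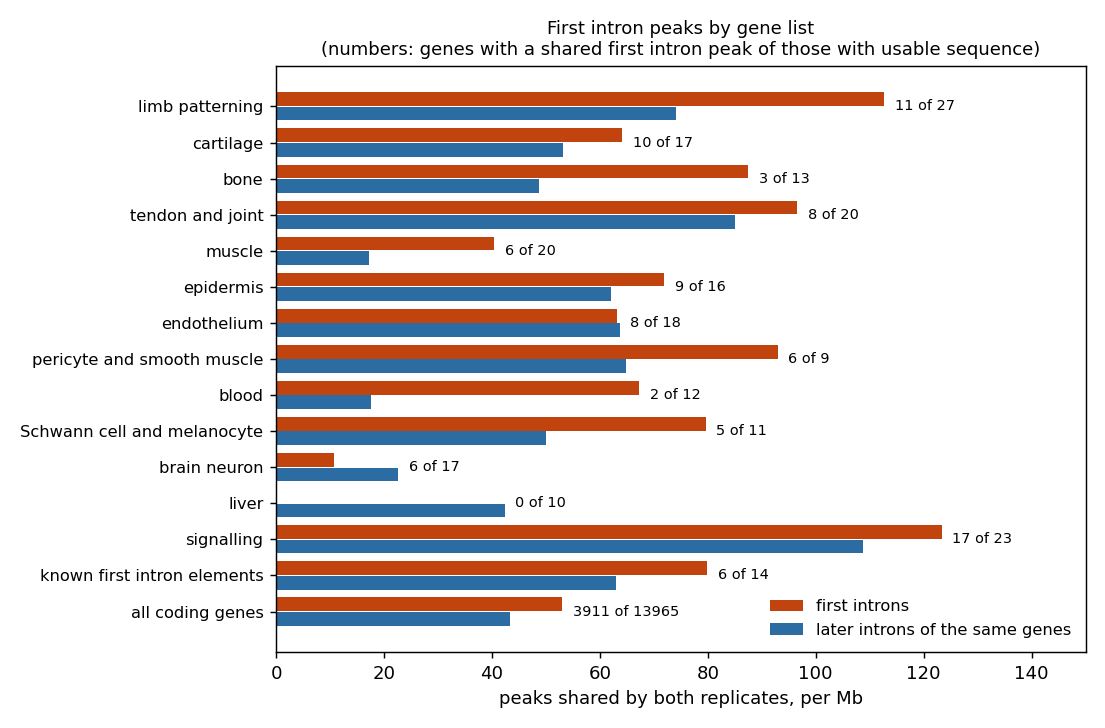
Peaks shared by both replicates per Mb (horizontal axis, bars from 0) in first introns and in later introns of the same genes, for 14 gene lists and for all coding genes; the number beside each pair gives the genes with a shared first-intron peak of those with usable first-intron sequence. In first introns, signalling genes reach 123 per Mb and limb patterning genes 113, brain neuron genes 10.7 and liver genes 0, against 53.0 over all coding genes. Later introns of brain neuron and liver genes stand higher, at 22.7 and 42.3 per Mb.

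In limb patterning, Zfhx3, a homeobox and zinc-finger factor gene, had 26 first-intron peaks in replicate 1, 34 in replicate 2 and 20 shared, over 190.7 kb. Its strongest, at chr8:107956016-107956165, had signals of 94 and 75. Gli2, a transcription factor gene of the hedgehog pathway, had 9 and 12 peaks with 6 shared, and a strongest peak with signals of 95 and 99 at 19.6 kb from its start. Fgf10, the mesenchymal growth factor gene needed for limb outgrowth in mice, had 15 and 9 with 6 shared, in 65.7 kb of usable sequence. Its other introns held no shared peak, but had only 7.51 kb of usable sequence, too little for a comparison. The 6 peaks of Fgf10 depend on the transcript taken: with the transcript of the longest genomic span instead, it had 0.

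Among signalling genes, Ror2, the receptor of WNT5A in limb cartilage, had 26 peaks in each replicate and 20 shared, spread along the intron. The strongest, at chr13:53201756-53201905, lay 84.3 kb from the start with signals of 101 and 73. Tead1, the DNA-binding partner of YAP, had 15 peaks in each replicate and 12 shared, and Smad3, a transducer of TGF-beta, 16 and 18 with 11 shared. These 3 genes were the highest of their list.

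The skeletal and connective tissue genes named here had fewer peaks each, in shorter introns. Per length their lists were not sparse. First introns held 64.1 shared peaks per Mb in the cartilage list, 87.4 in bone and 96.5 in tendon and joint, against 53.0 over all coding genes. The bone value rests on only 7 shared peaks. They lay in 3 of 13 bone genes, or 23.1%, below the 28.0% over all coding genes. In the cartilage list 10 of 17 genes had a shared peak, and in tendon and joint 8 of 20. Some of the strongest peaks lay close to the start of the transcript. Those of Runx3 and Alpl lay 26.3 and 24.9 kb from it, but 5.5 and 1.67 kb from the nearest coding TSS. Col3a1, a fibrillar collagen gene, had 5 peaks in replicate 1, 4 in replicate 2 and 4 shared in an intron of 9.66 kb. None was shared in its later introns, which had only 13.7 kb of usable sequence. The strongest Col3a1 peak, at chr1:45312956-45313105, 1.49 kb from the start, had signals of 103 and 89. Sparc, the gene of the bone matrix protein osteonectin, had 3 and 4 peaks with 2 shared, the strongest at chr11:55418236-55418385 with signals of 101 and 98. Hapln1, the link protein gene of cartilage, had 5 and 4 peaks with 4 shared and a strongest signal of 98 and 71. Runx3, a factor of cartilage maturation, had 4 and 5 with 3 shared, and its strongest, at chr4:135146916-135147065, had signals of 105 and 80. Alpl, the alkaline phosphatase gene of mineralising tissue, had 4 and 4 with 4 shared. In the muscle list the highest were Mef2d with 3 shared peaks, Cdh15 with 2 and Dmd with 2.

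Shared peaks were also found in genes of the epidermis, Schwann cell and melanocyte, pericyte, blood and brain neuron lists. The genes named are the highest of their lists by shared peaks, so having one follows from that choice. Which cells carried these peaks was not tested. Trp63, which encodes the master regulator of the epidermis, had 4 and 6 peaks with 4 shared in 78.9 kb, the strongest at chr16:25746956-25747105 with signals of 89 and 70. Lamb3, a basement membrane laminin gene, had 5 shared peaks and Dst, a hemidesmosome gene, 4, but with the transcript of the longest genomic span these were 3 and 0. Ngfr, the neurotrophin receptor gene of Schwann cell precursors, had 3 and 5 with 3 shared and signals of up to 111 and 76. Mitf, the factor of melanocytes, had 15 and 14 with 10 shared. Cspg4, a pericyte proteoglycan gene, had 5 and 10 with 5 shared and a strongest signal of 92 and 93. In the blood list Mrc1 and Csf1r had 1 shared peak each. In the brain neuron list Cntnap2 had 3 shared peaks, in an intron of 593.6 kb, and Slc32a1 and Rbfox3 2 each.

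**Figure D5:**
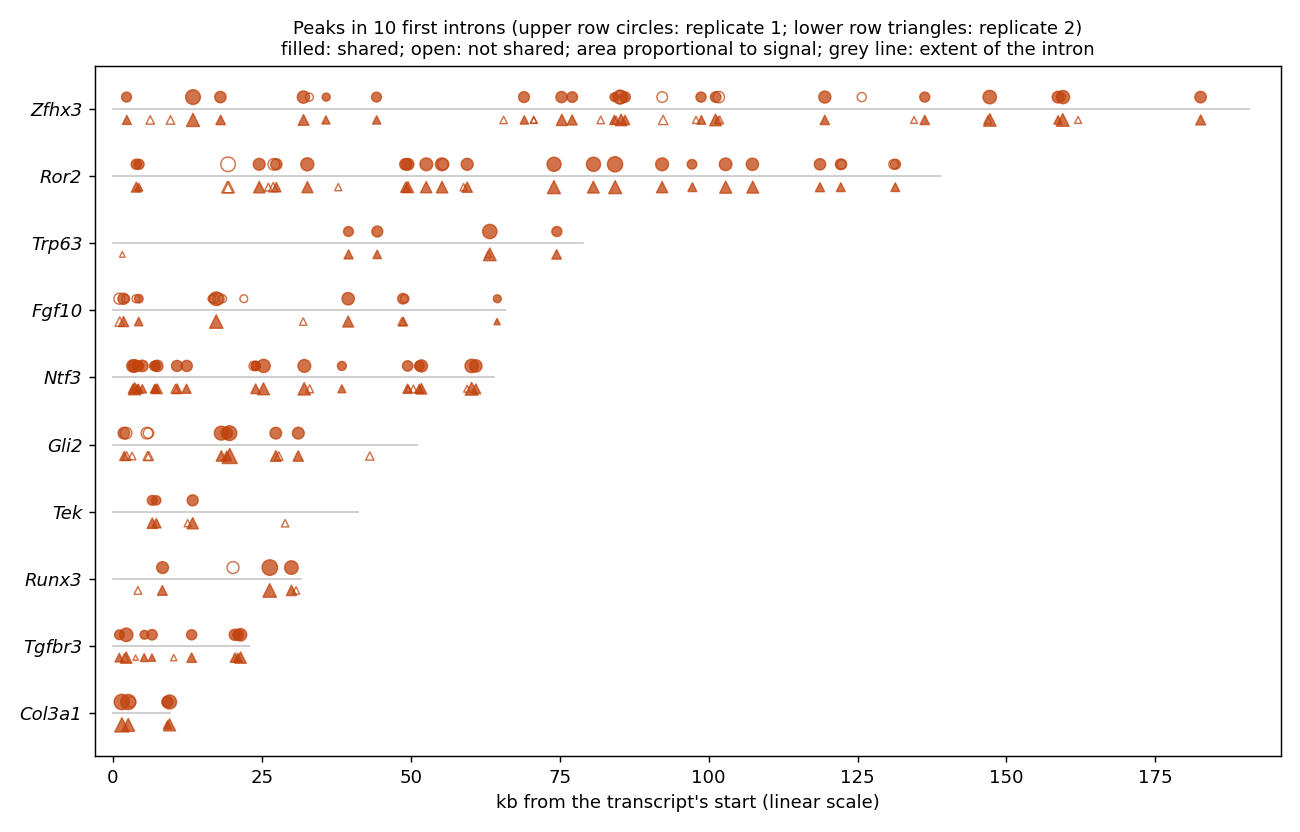
Peaks in 10 first introns by distance in kb from the start of the transcript (horizontal axis), with circles for replicate 1 above and triangles for replicate 2 below each grey line, which shows the extent of the intron; marker area is proportional to the authors' signal, and filled markers are shared. Zfhx3 and Ror2, with 20 shared peaks each, carry them along the whole intron, while the 4 shared peaks of Col3a1 lie near its ends.

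Of 20 genes for which an element in the first intron is known from the literature, in mouse, rat or human, 14 had usable sequence. A shared peak was found in 6 of the 14, or 42.9%, against 28.0% of all coding genes with usable sequence. The median first intron of the list was 7.34 kb, against 5.20 kb over all genes. The list had 79.9 shared peaks per Mb in first introns and 62.9 in later introns, against 53.0 and 43.4 over all coding genes. Col4a1, a basement membrane collagen gene, had 11 peaks in replicate 1, 9 in replicate 2 and 9 shared. Tek had 3 and 5 with 3 shared, the strongest at chr4:94752616-94752765, 13.4 kb from the start, with signals of 53 and 55. Fli1 had 2 shared, and Cd34, Tagln and Kdr 1 each. The Kdr peak, in the receptor gene of VEGF, had signals of only 29 and 25. No peak was shared in the usable sequence of Acta2, Col11a2, Col6a1, Flt1, Hprt, Krt18, Pdgfra and Rarb. That sequence was only 0.099 kb in Col6a1, 0.285 kb in Krt18 and 0.653 kb in Acta2. So little sequence cannot show whether a gene lacks an open element, yet these genes count among the 14. Flt1, Hprt and Rarb had more, with 24.6, 9.95 and 25.5 kb. With the transcript of the longest genomic span Rarb had 7 shared peaks, and with an overlap of 1 bp taken as shared it had 1.

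For several of these genes the limits of the comparison removed the whole intron. Bcl6, Col1a1, Col2a1, Des, Lmna and Runx1 had no first-intron sequence over 1 kb from a coding TSS and outside exons. With the transcript of the longest genomic span, Bcl6 had 10 shared peaks and Lmna 6. In Col2a1 an annotated transcript that retains the 3.80 kb intron counts as exon over most of it. The intron did hold 6 peaks in replicate 1 and 3 in replicate 2, which are not counted here. Pdgfra likewise had 5 and 3 peaks in its intron and 0 in its usable sequence.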

How the data were processed

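DNase-seq of E14.5 mouse limb was analysed from the authors' deposited regions, called in each of 2 libraries separately on mm10, per the file headers. The peak signal is the authors' deposited value per peak, whole numbers whose scaling no source used here states. The hotspot value is a deposited −log10 q-value. No source used here names the aligner, the caller or the filters. The read depth is unknown, so no value rests on read counts. Densities depend on how many peaks the authors' threshold let through in each library.

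Genes, exons and starts came from GENCODE M21 on GRCm38.p6, the assembly of mm10, with sequence from RefSeq's copy of that assembly. The longest transcript of each of 21938 coding genes was the one with the largest summed exon length. Sequence that is a first intron of one gene and a later intron of another counted as first intron, and where introns nest the shorter one owned the base. Exons of any transcript and 1 kb around every coding TSS were removed from numerator and denominator. GT and AG ended 98.5% of 20011 first introns. Peaks off the autosomes, X and Y were set aside, 291 in replicate 1 and 277 in replicate 2. A peak was shared when a single peak of the other list covered at least 50% of it, and shared peaks were placed at replicate 1 coordinates. Of all peaks, 7675 in replicate 1 and 6810 in replicate 2 overlap another of their own list.

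Matched ratios divide the observed first-intron peaks by the number that later-intron densities give in the same classes. The calculation was tested on simulated data. Motifs were searched on both strands, beside windows of 150 bp at 1 kb. Named genes were the 10 strongest shared peaks, the 10 genes with the most shared peaks, the 5 densest introns with 20 kb of usable sequence, the 3 highest members of each of 14 lists and all 20 genes of the list of known elements. One of the genes so named is not reported here. The members, lists and motifs were chosen with earlier results of these data known. The comparisons with intergenic sequence and open starts were added after seeing the data. Values are given per replicate with no test over peaks or genes. Python 3.11.15, numpy 2.4.6, pandas 2.3.3 and scipy 1.17.1 were used.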

Additional observations from a re-analysis of the deposited data

How the results depend on the processing

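No paired analysis was possible because the study has 1 group. Every ratio stayed above 1 under all alternatives tried, and none of the 8 results changed direction in its mean over the replicates. Leaving out each replicate in turn gave 1.27 to 1.30 for the density ratio, 1.23 to 1.25 at equal TSS distance, 1.26 to 1.30 at equal intron length, 1.26 to 1.30 in the same genes, −3.54 to −2.51 percentage points for the difference in sharing, 0.667 to 1.33 for that in G or C content, 1.27 to 1.32 for the hotspot ratio and 1 for the signal difference. Taking the transcript of longest genomic span gave 1.24 for the density ratio, 1.20 at equal TSS distance, 1.23 at equal length, 1.23 in the same genes, 1.26 for hotspots and 0.50 for the signal difference. A limit of 2 kb from a TSS gave 1.17, 1.14, 1.17, 1.14 and 1.14 for the same ratios. The 50000 strongest peaks gave 1.21, 1.13, 1.32 and 1.19 for the first 4 ratios, 0 for the signal difference (−1 in replicate 1 and 1 in replicate 2), −1.52 for sharing and 2.00 for G or C content. Shared peaks alone gave 1.22, 1.18, 1.24 and 1.20. Hotspots in place of peaks gave 1.26, with a difference in median −log10 q-value of −0.34 in replicate 1 and −0.18 in replicate 2. Requiring the whole peak in the intron gave 1.31. The signal difference was 0.50 with starts of every annotated gene removed, on autosomes alone, in genes that overlap no other and without Gm20388, and 0 without repeats and with overlapping peaks counted once. At equal TSS distance the ratio was 1.26 by distance to the gene's own start, 1.15 with intron length matched, 1.14 with openness matched and 1.05 with both matched, the last 3 chosen after seeing the data. Of 77 named genes, 9 moved by over 1.5 times with the genomic-span transcript and 1, Rarb, with an overlap of 1 bp. The causes of these shifts were not tested. Only 2 libraries of unknown depth were available, which limits every statement on spread.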
